A study of Mus musculus with 9 samples.

Results

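The genes described here are the nuclear-encoded subunits of oxidative phosphorylation, read in a mouse breast carcinoma line after knockdown of Med4, a subunit of Mediator, the complex through which transcription factors act on RNA polymerase II. The line, D2A1-d, is used as a model of metastatic dormancy, and the title of the series names MED4 in that setting. The groups were cells with the Med4 hairpin shMed4 #4, cells with the Med4 hairpin shMed4 #1, and cells with a non-targeting control hairpin (NTC), with 3 libraries in each group and 9 in all. All 3 groups carried a transduced hairpin and were grown in culture, the labels give their genotype as WT, and each rests on this 1 cell line.

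Members were chosen by symbol: protein-coding genes named Nduf (a, b, c, s or v), Sdha to Sdhd, Uqcr, Cox4 to Cox8, Cyc1, Cycs or Atp5, without the Ndufaf assembly factors. This gave 88 of 55335 gene identifiers, under 87 symbols, spread over 19 chromosomes. Of these, 80 had enough reads to be tested and 8 did not. Complex I had 36 members, complex II 4, complex III 9, complex IV 20 and complex V 18, and cytochrome c (Cycs) was counted by itself. Ndufa4 was placed in complex IV, where its protein is found, although its name is that of a complex I subunit. Usmg5 and Atpif1, a subunit and an inhibitor of ATP synthase under older symbols, lie outside the symbol rule.

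Oxidative phosphorylation passes electrons from NADH and succinate through complexes I and II to ubiquinone, then through complex III and cytochrome c to complex IV, which reduces oxygen. The proton gradient made on the way drives complex V, the ATP synthase. A few core subunits of complexes I, III, IV and V are encoded in mitochondrial DNA and the rest in the nucleus, so these complexes need both sets. Complex II is encoded in the nucleus alone. Nuclear genes of a given complex are scattered over the genome.

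Libraries held 7572114 to 8582235 reads assigned to genes, and 14335 genes were tested. Levels are in CPM, a gene's reads as a share of its library on a fixed scale, after scaling of library sizes by the trimmed mean of M values. Fold changes, standard errors (SE) and adjusted p-values come from edgeR's quasi-likelihood test over all genes with Benjamini-Hochberg adjustment, and a gene is called changed at an adjusted p under 0.05. Labels say that the libraries are biological replicates but not how the cultures were separated, so the p-values are set by the spread among these 9 libraries, which may in part be technical. Med4 itself averaged 7.21 CPM with shMed4 #4, 4.53 CPM with shMed4 #1 and 27.4 CPM in NTC cells. The epithelial keratins Krt8 and Krt18 were detected and Epcam, Cdh1, Krt5 and Krt14 were at or near 0, while leukocyte markers (Ptprc, Tyrobp) were at or near 0, as were the endothelial Pecam1 and the fibroblast genes Dcn and Lum. Pdgfra averaged 60.0 CPM with shMed4 #4 and 77.1 CPM with shMed4 #1, against 128 CPM in NTC cells, and Cdh5 2.26 and 2.47 CPM with these hairpins against 0.832 CPM in NTC cells. Krt8 rose with both hairpins, to 53.9 CPM with shMed4 #4 and 19.2 CPM with shMed4 #1, against 3.93 CPM in NTC cells, and the mesenchymal marker Vim fell, to 1101 CPM with shMed4 #4 and 1501 CPM with shMed4 #1, against 1950 CPM in NTC cells. Their part in the results below was not tested. In bulk RNA, fewer cells that express a gene and less RNA per cell cannot be told apart.

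Together, the subunit genes kept nearly the same summed level in the 3 groups while single genes moved in both directions. Their CPM summed to 7219 ± 256 with shMed4 #4, 7240.3 ± 90.1 with shMed4 #1 and 7183 ± 237 in NTC cells (SD, n = 3 each). Before scaling, they took 0.702% of the reads assigned to genes with shMed4 #4, 0.725% with shMed4 #1 and 0.733% in NTC cells. For the mean of both hairpins against NTC, 25 of the 80 tested members rose and 14 fell, where 53.3% of all genes tested were called (26.8% higher and 26.5% lower). The share of members called was 48.8%, close to that background. With upper-quartile scaling the split was 19 higher and 18 lower, and with a trend on GC content and length removed it was 32 higher and 11 lower.

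The changes were small. The median size of the log2 fold change, regardless of sign, was 0.15 over the members and 0.24 over all genes tested, and the SD of the log2 fold changes was 0.25 over the members and 0.63 over all genes. Level of expression was not matched, so these values do not set the members apart from other genes of like level. Only 4 of the 80 members reached a log2 fold change of 0.5 in either direction. These were Cox6a2 at 1.13, Ndufb11 at 0.59, Cycs at 0.51 and Atp5k at -0.67, the last with 0.968 to 2.58 CPM in the 9 libraries. Members that were not called had log2 fold changes between -0.12 and 0.21. In 12 members all 6 knockdown libraries lay above all 3 NTC libraries, and in 7 members all 6 lay below, where 19.5% and 18.3% of all genes did so. The largest changes per complex described below were picked among called members whose groups do not overlap. For those genes the lack of overlap and the small p-values come with the choice and add no support.

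**Figure D1:**
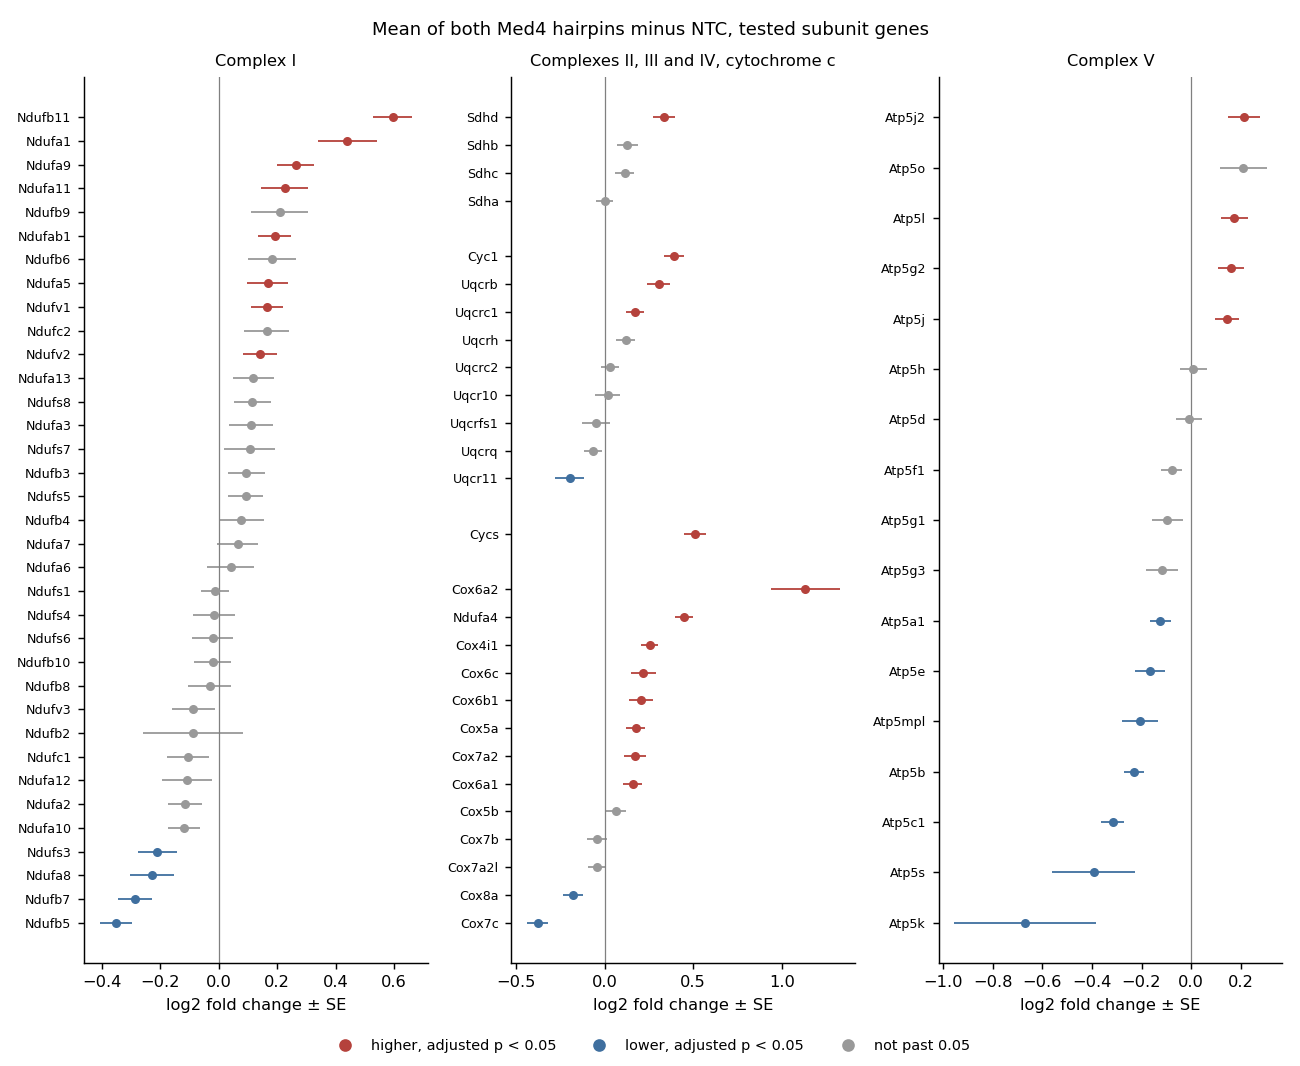
Log2 fold change of the tested subunit genes shown by name, mean of both Med4 hairpins minus NTC, with its SE as a bar; colours mark genes called higher, called lower or not past an adjusted p of 0.05. Complex IV has 8 genes called higher and 2 called lower, while complex V has 4 called higher and 7 called lower. Among all genes tested, 26.8% were called higher and 26.5% lower. With the median change of chromosomal neighbours subtracted, the medians of complexes IV and V were 0.01 and -0.02.

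The 2 hairpins, which are set against the same NTC libraries, gave 22 higher and 14 lower members for shMed4 #4, where 55.1% of all genes were called (27.8% higher and 27.3% lower). For shMed4 #1, 19 members were higher and 6 lower, where 41.6% of all genes were called (21.8% higher and 19.8% lower). With upper-quartile scaling the split was 18 higher and 20 lower for shMed4 #4 and 15 higher and 11 lower for shMed4 #1. By complex, for the mean of both hairpins, the calls were 8 higher and 4 lower of 36 in complex I, 1 higher and 0 lower of 4 in complex II, and 3 higher and 1 lower of 9 in complex III. Complex IV had 8 higher and 2 lower of the 13 tested, and complex V had 4 higher and 7 lower of the 17 tested. For this contrast 53.3% of all genes were called (26.8% higher and 26.5% lower). Median log2 fold changes were 0.07 for complex I, 0.12 for complex II, 0.03 for complex III, 0.17 for complex IV and -0.10 for complex V, beside -0.01 over all genes tested. With upper-quartile scaling the median of complex III was -0.01 and those of the other complexes kept their sign. With the median change of chromosomal neighbours subtracted, as described further on, the medians were 0.02 for complex I, 0.15 for complex II, 0.04 for complex III, 0.01 for complex IV and -0.02 for complex V.

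Complex IV summed to 1462 ± 94 CPM with shMed4 #4 and 1467.4 ± 6.87 CPM with shMed4 #1, against 1344.4 ± 64.9 CPM in NTC cells (SD, n = 3 each). Complex V summed to 2725 ± 81.8 CPM with shMed4 #4 and 2699 ± 51.1 CPM with shMed4 #1, against 2951 ± 79.8 CPM in NTC cells. The knockdown libraries of complex V, from 2642 to 2816 CPM, all lay below the NTC libraries, from 2859 to 3005 CPM. Those of complex IV overlapped NTC in 1 hairpin only: shMed4 #4 ran from 1401 to 1570.3 CPM and shMed4 #1 from 1462 to 1475 CPM, against 1277 to 1406 CPM in NTC cells. The sum of complex I was 101.6% of the NTC mean with shMed4 #4 and 103.8% with shMed4 #1, within the spread of the libraries. Complex II stood at 107.7% with shMed4 #4 and 109.3% with shMed4 #1. Its knockdown libraries, from 386.8 to 413 CPM, all lay above the NTC libraries, from 351 to 377.7 CPM. Before scaling the groups overlapped: complex II took 0.03785% of gene reads in shMed4 #4 replicate 1, against 0.03845% in NTC replicate 1. Complex III stood at 107.9% and 108.1%. It overlapped NTC (657.3 to 716.9 CPM) with shMed4 #4 (710.8 to 771.9 CPM) but not with shMed4 #1 (733.3 to 757.7 CPM). As a share of gene reads before scaling, complex III overlapped with shMed4 #1 too, at 0.07289% in its replicate 1 against 0.07315% in NTC replicate 3.

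**Figure D2:**
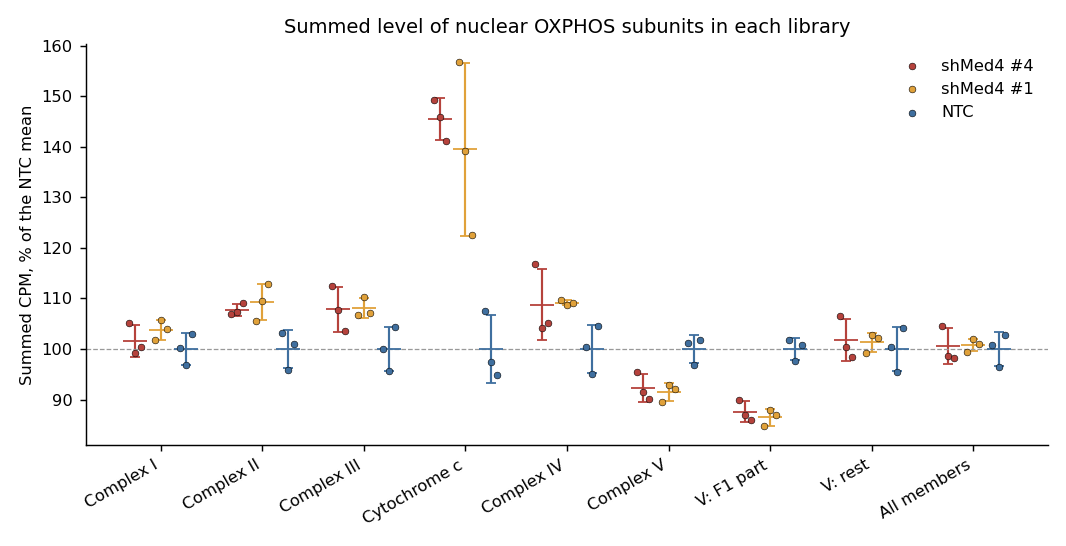
Summed CPM of the members of each complex in every library, as a percentage of the NTC mean; points are libraries, horizontal bars group means and whiskers SD (n = 3 per group), with shMed4 #4, shMed4 #1 and NTC from left to right. The F1 part of complex V stands at 87.6% of NTC with shMed4 #4 and 86.5% with shMed4 #1, while the rest of complex V stands at 101.8% and 101.3%.

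Complex I takes electrons from NADH, and its nuclear subunits fall into a matrix arm that holds the flavin and iron-sulphur clusters and a membrane arm around the proton channels. In the matrix arm, 2 of the 10 N module members rose and none fell (Ndufv1 and Ndufv2, parts of the NADH-binding end), and in the Q module 2 of 6 rose (Ndufa9, log2 fold change 0.26, and Ndufa5, 0.17) and 1 fell (Ndufs3, -0.21). In the membrane arm, 2 of 9 proximal members rose and 1 fell, and 2 of 11 distal members rose and 2 fell. The share called was 33.3% in the proximal and 36.4% in the distal part, and 33.3% over complex I, below the 53.3% of all genes. The other 24 complex I members, among them the core subunits Ndufs1, Ndufs7 and Ndufs8, were not called.

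Ndufb11, a distal membrane arm subunit encoded on the X chromosome (chrX:20615326-20617619, GRCm38, minus strand), had the largest change in complex I. Its level was 63.1, 56.4 and 54.7 CPM with shMed4 #4 and 57.7, 63.9 and 61.7 CPM with shMed4 #1, against 39.3, 36.2 and 42.7 CPM in NTC cells. The knockdown libraries did not overlap with NTC, and the log2 fold change was 0.59 (SE 0.07, edgeR adjusted p = 1.7e-09). Exons of Rbm10 on the other strand cover 12.9% of its exon bases, and the counting strand is not given in the sources used here. Ndufa1, a small proximal subunit that is also X-linked, had 17.2, 16.3 and 18.6 CPM with shMed4 #4 and 17.6, 16.3 and 17.4 CPM with shMed4 #1, against 12.8, 12.4 and 12.9 CPM in NTC cells. It too stood above NTC in all 6 libraries (log2 fold change 0.44, SE 0.10, edgeR adjusted p = 0.00035). Among 25 tested genes on each side of them, the median log2 fold change was 0.55 for both genes.

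Ndufb5, another distal subunit, moved the other way. It had 66.3, 62.9 and 63.1 CPM with shMed4 #4 and 60.3, 68.5 and 64.3 CPM with shMed4 #1, against 79.2, 80.6 and 86.3 CPM in NTC cells. All 6 knockdown libraries were below NTC (log2 fold change -0.35, SE 0.06, edgeR adjusted p = 1.2e-06), and its neighbouring genes had a median of -0.28. Ndufa2, the most abundant complex I member per length in NTC cells, averaged 111 CPM per kb with shMed4 #4 and 113 CPM per kb with shMed4 #1, against 122 CPM per kb in NTC cells. Its libraries had 63.7, 63.6 and 63.9 CPM with shMed4 #4 and 62.5, 65.1 and 66.9 CPM with shMed4 #1, against 74.2, 62.4 and 72.2 CPM in NTC cells. NTC replicate 2 lay below all 6 knockdown libraries and the other NTC libraries above them, and the gene was not called. Without NTC replicate 2 it passed the threshold (log2 fold change -0.19, edgeR adjusted p = 0.0143).

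Complex II oxidises succinate in the citrate cycle with the flavoprotein Sdha and the iron-sulphur protein Sdhb, held in the membrane by the anchors Sdhc and Sdhd. Sdhd was the 1 member called for the mean of both hairpins. It had 76.5, 80.9 and 76.6 CPM with shMed4 #4 and 69.7, 69.6 and 71.4 CPM with shMed4 #1, against 66.8, 54.2 and 55.1 CPM in NTC cells. The groups did not overlap (log2 fold change 0.33, SE 0.06, edgeR adjusted p = 1.7e-05). Sdhb had 81.2, 88.0 and 89.0 CPM with shMed4 #4 and 65.1, 79.7 and 78.3 CPM with shMed4 #1, against 73.5, 69.5 and 76.5 CPM in NTC cells. Sdhc had 106, 101 and 108 CPM with shMed4 #4 and 96.3, 111 and 108 CPM with shMed4 #1, against 95.9, 89.8 and 106 CPM in NTC cells. Sdhb was called higher with shMed4 #4 (0.23, edgeR adjusted p = 0.0038), where every library lay above NTC. With shMed4 #1 Sdhb was not called (0.025, edgeR adjusted p = 0.805), and the hairpins differed (0.21, edgeR adjusted p = 0.018). For the mean of both hairpins Sdhb, at 0.13, and Sdhc, at 0.11, overlapped NTC and were not called. Each was called after 1 or another library was left out: Sdhb without shMed4 #4 replicate 1 (0.16, edgeR adjusted p = 0.03) or without shMed4 #1 replicate 1 (0.18, edgeR adjusted p = 0.00626), and Sdhc without NTC replicate 3 (0.18, edgeR adjusted p = 0.0156) or without shMed4 #1 replicate 1 (0.15, edgeR adjusted p = 0.0165).

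In complex III, which passes electrons from ubiquinol to cytochrome c, Cyc1, Uqcrb and Uqcrc1 rose and Uqcr11 fell. Cyc1 is the haem protein that hands the electron to cytochrome c. It had 124, 124 and 113 CPM with shMed4 #4 and 95.8, 113 and 112 CPM with shMed4 #1, against 90.4, 78.0 and 90.8 CPM in NTC cells. All 6 knockdown libraries were above NTC, and the log2 fold change was 0.39 (SE 0.06, edgeR adjusted p = 5.05e-07), while its neighbouring genes had a median of 0.12.

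Uqcrb, a small ubiquinone-binding subunit and the most abundant of complex III per length, had 94.6, 77.0 and 80.5 CPM with shMed4 #4 and 105, 94.9 and 84.4 CPM with shMed4 #1, against 71.1, 70.5 and 75.1 CPM in NTC cells. The groups did not overlap (log2 fold change 0.30, SE 0.06, edgeR adjusted p = 0.00013). Its neighbours on chromosome 13 were lower, with a median of -0.29. Since 25.5% of its 50-base stretches also occur in transcripts of another gene, the count of Uqcrb is uncertain. Uqcrc1, a core protein, changed less: 105, 104 and 99.7 CPM with shMed4 #4 and 95.1, 98.9 and 97.5 CPM with shMed4 #1, against 88.2, 86.8 and 91.2 CPM in NTC cells (log2 fold change 0.17, SE 0.05, edgeR adjusted p = 0.0039). The Rieske iron-sulphur protein Uqcrfs1 had a log2 fold change of -0.05 and was not called.

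Cycs, the cytochrome c that carries electrons between complexes III and IV and that also acts in apoptosis, had the third largest rise of all members. It had 111, 109 and 105 CPM with shMed4 #4 and 117, 104 and 91.3 CPM with shMed4 #1, against 80.1, 72.6 and 70.7 CPM in NTC cells. No knockdown library reached down to NTC. The log2 fold change was 0.51 (SE 0.06, edgeR adjusted p = 6.0e-09), against a median of 0.08 over its neighbours on chromosome 6, and 26.1% of its 50-base stretches occur in transcripts of other genes.

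**Figure D3:**
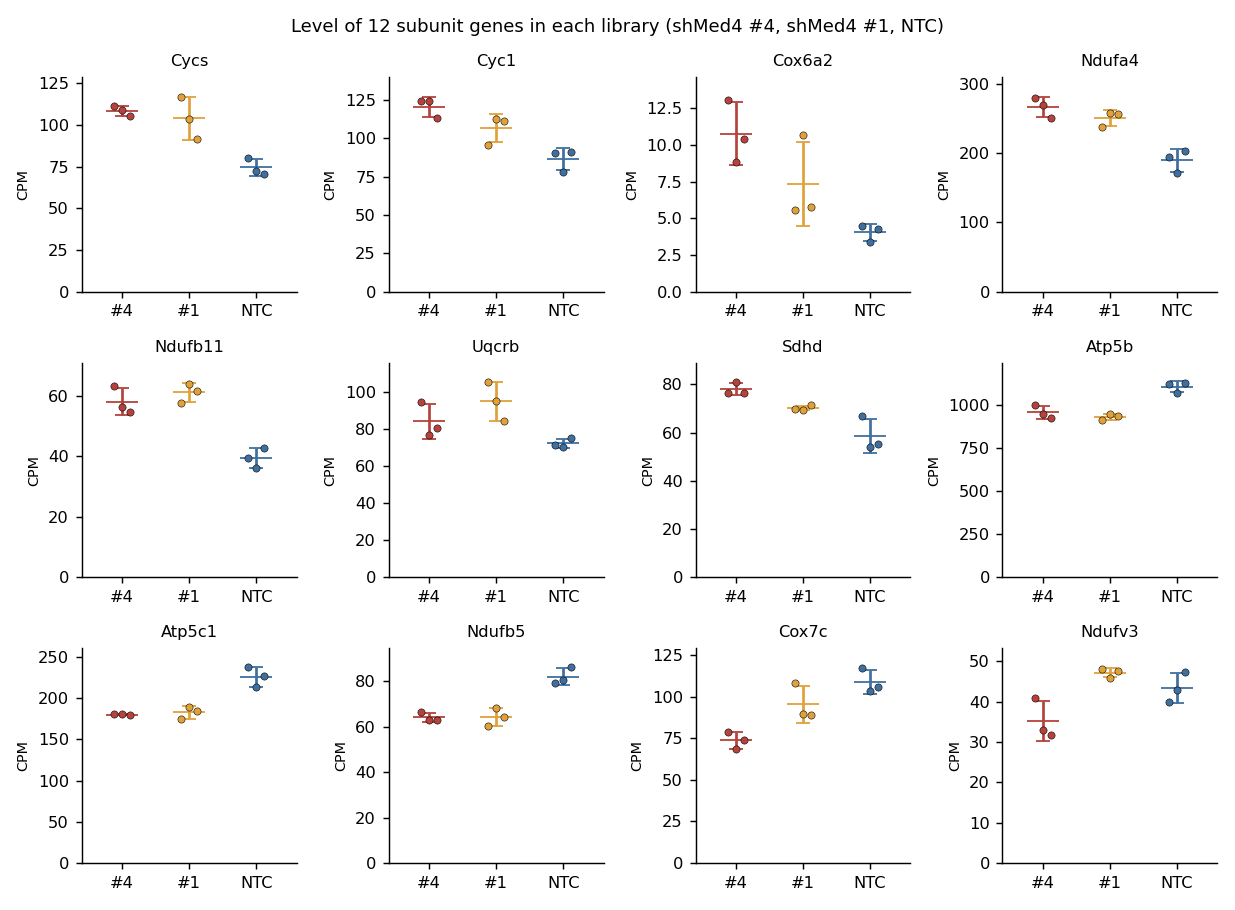
CPM of 12 subunit genes in every library, on axes that start at 0; points are libraries, horizontal bars means and whiskers SD (n = 3 per group), with shMed4 #4, shMed4 #1 and NTC from left to right in each panel. Cycs, Cyc1, Cox6a2, Ndufa4, Ndufb11, Uqcrb and Sdhd lie above NTC in all 6 knockdown libraries, Atp5b, Atp5c1 and Ndufb5 lie below it, and Cox7c and Ndufv3 differ between the hairpins. All but Cycs were picked by rules on these same values.

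Complex IV reduces oxygen around a core made in mitochondria, and several of its nuclear subunits exist as a general form and a tissue-restricted form. Of the 11 general forms, 7 rose (Ndufa4, Cox4i1, Cox6c, Cox6b1, Cox5a, Cox7a2 and Cox6a1) and 2 fell (Cox7c and Cox8a), where 26.8% of all genes were called higher and 26.5% lower. Ndufa4 had 279.7, 269 and 251 CPM with shMed4 #4 and 237, 257 and 257 CPM with shMed4 #1, against 195, 171 and 203 CPM in NTC cells. The groups were apart (log2 fold change 0.45, SE 0.05, edgeR adjusted p = 1.8e-09), and the neighbours of Ndufa4 on chromosome 6 had a median of 0.39.

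Cox4i1, the general form of the regulatory subunit IV, had 271, 233 and 231 CPM with shMed4 #4 and 228, 235 and 238 CPM with shMed4 #1, against 204, 189 and 209 CPM in NTC cells. Its rise was 0.25 (SE 0.05, edgeR adjusted p = 4.5e-05), beside 0.29 over its neighbours. Cox5a rose by 0.18 and Cox6c by 0.22. Calls on Cox6a1, Cox6b1 and Cox7a2, with log2 fold changes of 0.16, 0.21 and 0.17, were each lost when NTC replicate 2 was left out (edgeR adjusted p = 0.165, 0.134 and 0.156). Those on Cox6a1 and Cox6b1 were also lost without NTC replicate 1 (edgeR adjusted p = 0.107 and 0.0937), and that on Cox7a2 without shMed4 #4 replicate 3 (0.0622) or shMed4 #1 replicate 3 (0.0513).

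Cox8a, the most abundant complex IV member per length in NTC cells, had 127, 113 and 104 CPM with shMed4 #4 and 123, 123 and 134 CPM with shMed4 #1, against 124, 136 and 149.9 CPM in NTC cells. The groups overlapped. It averaged 186 CPM per kb with shMed4 #4 and 205 CPM per kb with shMed4 #1, against 221 CPM per kb in NTC cells (log2 fold change -0.18, SE 0.06, edgeR adjusted p = 0.0078). Without NTC replicate 3 this call was lost (-0.11, edgeR adjusted p = 0.157), as it was with the GC and length trend removed (-0.11, 0.101), with that trend removed and a replicate block (-0.11, 0.128), and with both hairpins pooled as 1 group (-0.18, 0.0916). Cox7a2l, a factor that joins complexes III and IV into supercomplexes, was not called, at -0.04.

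Of the 8 tissue-restricted forms, Cox6a2 alone was tested. It is the heart and skeletal muscle form of subunit VIa (chr7:128205435-128206387, GRCm38, minus strand). It had 13.1, 8.82 and 10.4 CPM with shMed4 #4 and 5.59, 10.7 and 5.79 CPM with shMed4 #1, from 45 to 107 reads a library, against 4.48, 3.36 and 4.30 CPM from 26 to 36 reads in NTC cells. Exons of Itgad on the other strand cover 10.3% of the exon bases of Cox6a2, and the counting strand is not given. The lowest knockdown library of Cox6a2 was above the highest NTC library. Its log2 fold change, 1.13 (SE 0.19, edgeR adjusted p = 6.3e-06), was the largest of all members. Per length it stayed far under the general form: Cox6a2 averaged 15.8, 10.8 and 5.95 CPM per kb with shMed4 #4, with shMed4 #1 and in NTC cells, and Cox6a1 133, 149 and 126 CPM per kb. Of 5 muscle markers, Myod1 and Myog had no reads, Ckm and Actn2 stayed near 0, and Tnnt2, a cardiac troponin, averaged 87.3 CPM with shMed4 #4 and 77.5 CPM with shMed4 #1, against 39.6 CPM in NTC cells.

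The other 7 tissue-restricted forms (Cox4i2, Cox6b2, Cox7a1, Cox7b2, Cox8b, Cox8c and Ndufa4l2) averaged at most 1.09 CPM in any group. Cox8c had 0 reads in all 9 libraries, as did a second identifier of Atp5o. Ndufa4l2, the paralogue of Ndufa4 that is induced by hypoxia in other cells, had 11 reads with shMed4 #4, 15 with shMed4 #1 and 11 in NTC cells, summed over 3 libraries each.

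Complex V is a rotary enzyme with an F1 part in the matrix, which makes ATP, and a membrane part with a ring of c subunits, held together by stalks. Of the 5 F1 genes, Atp5a1, Atp5b, Atp5c1 and Atp5e fell, and Atp5d had a log2 fold change of -0.01 and was not called. In each of the 4 that fell all 6 knockdown libraries lay below all 3 NTC libraries, as in 18.3% of all genes. A call of lower was given to 26.5% of all genes tested. F1 genes summed to 1717.4 ± 40.9 CPM with shMed4 #4 and 1697 ± 32.3 CPM with shMed4 #1, against 1961 ± 42.1 CPM in NTC cells (SD, n = 3 each). The rest of complex V summed to 1007 ± 40.9 CPM with shMed4 #4 and 1002.5 ± 18.9 CPM with shMed4 #1, against 989.3 ± 42.6 CPM in NTC cells.

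Atp5b, the catalytic beta subunit (chr10:128083273-128090391, GRCm38, plus strand), was the most abundant of all members per length, at 226 CPM per kb with shMed4 #4 and 220.4 CPM per kb with shMed4 #1, against 262 CPM per kb in NTC cells. Its libraries had 1002, 949 and 927 CPM with shMed4 #4 and 913, 949 and 939 CPM with shMed4 #1, against 1126, 1070 and 1133 CPM in NTC cells. The groups did not overlap (log2 fold change -0.23, SE 0.04, edgeR adjusted p = 1.2e-05), and the neighbours had a median of -0.21.

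Atp5c1, the gamma subunit that turns inside the head, had 180.4, 180.5 and 180.2 CPM with shMed4 #4 and 174, 190.1 and 184 CPM with shMed4 #1, against 238, 214 and 227 CPM in NTC cells. It fell by 0.32 on the log2 scale (SE 0.05, edgeR adjusted p = 2.1e-07), with neighbours at -0.37. Atp5a1, the alpha subunit, and Atp5e, the epsilon subunit, had log2 fold changes of -0.12 and -0.17, with neighbours at -0.13 and -0.11. So each of the 4 F1 genes that fell lies among genes with a negative median, on chromosomes 18, 10 and 2. Atp5d, the F1 gene that was not called, also lies among such genes on chromosome 10, with neighbours at -0.17. Its own log2 fold change was -0.01. With the neighbours' median subtracted, as described further on, Atp5d was called higher (0.16, edgeR adjusted p = 0.0115).

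The other parts of complex V were mixed. Atp5j of the peripheral stalk, the c-ring gene Atp5g2 and the membrane genes Atp5j2 and Atp5l rose, by 0.14 to 0.21, and Atp5mpl, Atp5k and Atp5s fell. Atp5mpl, a small membrane subunit, had 37.2, 32.6 and 36.2 CPM with shMed4 #4 and 34.8, 33.0 and 40.1 CPM with shMed4 #1, against 40.4, 41.7 and 41.4 CPM in NTC cells. It fell by 0.21 (SE 0.07, edgeR adjusted p = 0.0145), and the call was lost without NTC replicate 2 (edgeR adjusted p = 0.0547). The 3 genes that encode the same mature c subunit differed in sign: Atp5g2 was at 0.16, and Atp5g1 and Atp5g3, at -0.10 and -0.12, were not called. The count of Atp5g2 is uncertain, since 38.3% of its 50-base stretches occur in transcripts of another gene. Atp5g3 was called without shMed4 #1 replicate 3 (-0.17, edgeR adjusted p = 0.0221).

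Between the 2 hairpins, 6 members were higher and 7 lower with shMed4 #4, where 28.0% of all genes tested were called (14.2% higher and 13.9% lower). The NTC libraries do not enter this fold change, but they share in the estimate of the spread. The 13 calls fell to 6 when shMed4 #1 replicate 1 was left out. In complex V none of the 17 tested members differed between the hairpins past the threshold. Cox7c, Ndufv3, Sdha and Ndufa11 are described because they had the smallest adjusted p-values of this contrast, so their separation comes with the choice. Cox7c, a small complex IV subunit, had 78.7, 68.4 and 73.8 CPM with shMed4 #4, against 108, 89.3 and 88.6 CPM with shMed4 #1, and 117, 104 and 106 CPM in NTC cells. Every shMed4 #4 library was below every other library, and the difference between the hairpins was -0.37 (SE 0.07, edgeR adjusted p = 0.00010).

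Ndufv3, a small N module subunit, had 40.9, 32.9 and 31.8 CPM with shMed4 #4, against 48.1, 45.9 and 47.7 CPM with shMed4 #1, and 39.8, 42.9 and 47.3 CPM in NTC cells. The difference between the hairpins was -0.42 on the log2 scale (SE 0.09, edgeR adjusted p = 0.00020), and the mean of both hairpins, at -0.09, was not called. Sdha had 128, 123 and 126 CPM with shMed4 #4, against 156, 141 and 155 CPM with shMed4 #1, and 142, 138 and 133 CPM in NTC cells. The hairpin means lay on either side of the NTC mean, with 1 shMed4 #1 library inside the NTC range, and the difference was -0.26 (SE 0.06, edgeR adjusted p = 0.00037). Ndufa11, a membrane arm subunit, went the other way, with 31.2, 29.9 and 31.9 CPM with shMed4 #4, against 25.7, 24.7 and 24.3 CPM with shMed4 #1, and 23.4, 22.6 and 25.3 CPM in NTC cells (difference 0.32, SE 0.09, edgeR adjusted p = 0.0056).

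Many of the changes of single subunit genes had the sign and size of those of the genes around them. For each gene, the median log2 fold change was taken over up to 25 tested genes on each side along the chromosome. Of the 39 members called, 36 had the sign of their neighbours. The matching share over all called genes was not counted. Across the 80 members the gene's own change and that of its neighbours had a Pearson correlation of 0.62. Over 14305 genes it was 0.27. Both are given as a description, since genes of 1 stretch share neighbours. The 2 values are not directly comparable: own changes had an SD of 0.25 over the members and 0.63 over all genes tested. The median size of the neighbours' change was similar, at 0.14 for the members and 0.12 for all genes. After the neighbours' median was subtracted from every gene in every contrast, 16 members were called, 13 higher and 3 lower, where 46.3% of all genes were called (24.1% higher and 22.2% lower). The p-values after subtraction take that median, drawn from the same libraries, as known. They leave out its error and the spread of change among neighbours, so they do not test a difference from the neighbours.

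Of the 39 called members, 29 kept their sign after this subtraction and 10 changed it. In the same direction, 7 stayed called: Cycs, Cyc1, Uqcrb, Cox6a2, Cox6b1, Cox7a2 and Ndufa11. The same counts were not made over all called genes. The call on Ndufa11 was lost without NTC replicate 1 (edgeR adjusted p = 0.0555) or NTC replicate 2 (0.0872), with the hairpins pooled as 1 group (0.0975) and with DESeq2 (0.0522). Relative to its neighbours Cycs was at 0.43 (edgeR adjusted p = 2.9e-07), Uqcrb at 0.59 (8.6e-10), Cox6a2 at 1.05 (2.7e-05) and Cyc1 at 0.27 (0.00019). The 4 F1 genes that fell were then between -0.06 and 0.06 and not called. Ndufb11 was at 0.05, Ndufa1 at -0.11 and Ndufa4 at 0.05, none of them called. Atp5g2 turned round, to -0.19 (edgeR adjusted p = 0.0021), and 8 members that had not been called passed the threshold, among them Sdha at 0.16, Sdhb at 0.16 and Cox7a2l at -0.23. Copy number was not measured in these libraries, and what moves neighbouring genes together was not tested.

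**Figure D4:**
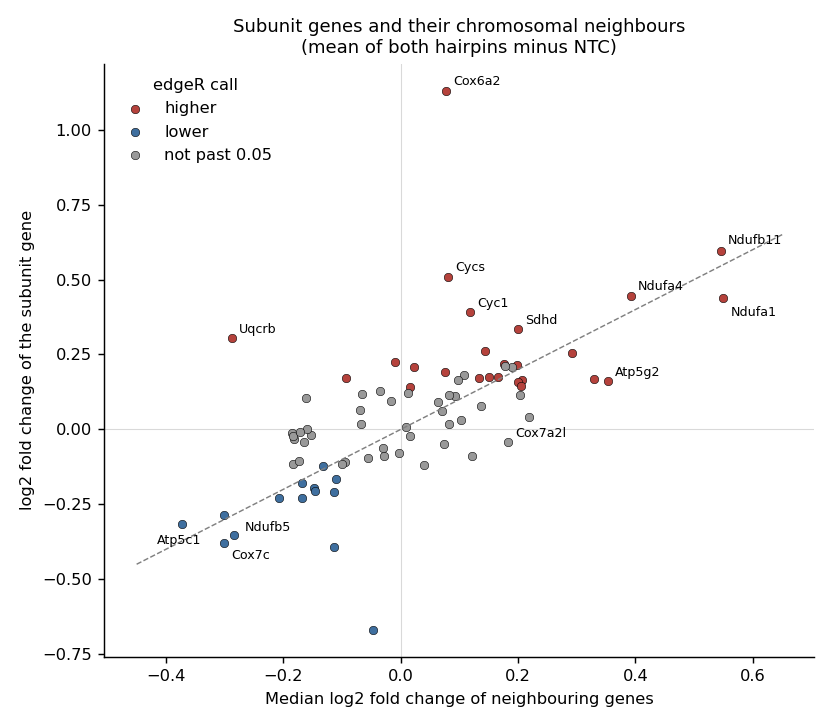
Log2 fold change of each tested subunit gene (vertical) against the median log2 fold change of its tested chromosomal neighbours (horizontal), mean of both hairpins minus NTC; colours give the edgeR call, and the dashed line marks equal values. Ndufb11, Ndufa4, Atp5c1, Ndufb5 and Cox7c lie near the line, while Cox6a2, Cycs, Cyc1 and Uqcrb lie well above it.

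Genes that serve the same machinery were counted from lists of their own. Of 45 tested assembly factors, which build the complexes without staying in them, 11 rose and 7 fell (40.0% called, where 53.3% of all genes were), with a median log2 fold change of 0.02 (-0.02 with upper-quartile scaling or with the neighbours' median subtracted). Sdhaf4 and Sdhaf2, which mature Sdha, rose by 0.88 and 0.37, and Coa6, a copper-handling factor of complex IV, rose by 0.79. Chosen after their values were seen, Atpaf2, a chaperone of the F1 alpha subunit, fell by 0.37, and Nubpl, which delivers iron-sulphur clusters to complex I, fell by 0.53. Of 14 citrate cycle enzymes, 7 rose and 5 fell (85.7% called, beside the same 53.3%). Idh3a, the alpha subunit of isocitrate dehydrogenase, rose by 0.57, and Suclg2, of succinyl-CoA ligase, by 0.59. Idh3b, of the same dehydrogenase, fell by 0.34 and citrate synthase, Cs, fell by 0.31, both also chosen after their values were seen.

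Of 16 tested regulators of mitochondrial biogenesis, 2 rose (Gabpa, 0.20, and Nrip1, 0.31) and 3 fell (Gabpb2, -0.29; Esrra, -0.33; Polg2, -0.43), which is 31.2% called beside 53.3% of all genes. With the neighbours' median subtracted, Gabpa (-0.004, edgeR adjusted p = 0.958), Nrip1 (0.13, 0.185) and Esrra (-0.15, 0.207) were not called. Nrf1, at 0.09, Pprc1, at -0.01, and Ppargc1b, at 0.03, were not called, and Ppargc1a had too few reads to be tested, at 0.739 and 0.362 CPM with shMed4 #4 and shMed4 #1 against 1.12 CPM in NTC cells. Of 12 tested subunits encoded in mitochondrial DNA, 10 rose and none fell (83.3% called, beside 53.3% of all genes), with a median of 0.48, and the complex I genes mt-Nd6, mt-Nd5 and mt-Nd2 were at 0.92, 0.83 and 0.65. Their summed level was 136.6% of the NTC mean with shMed4 #4 and 130.3% with shMed4 #1, where the nuclear subunits stood at 100.5% and 100.8%.

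**Figure D5:**
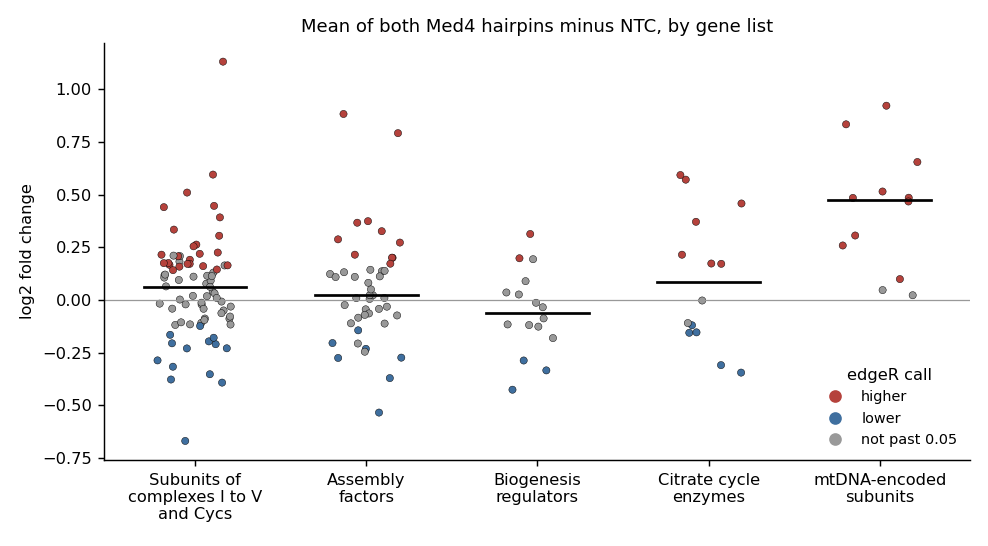
Log2 fold change, mean of both hairpins minus NTC, of each tested gene in 5 lists; points are genes, coloured by their edgeR call, and black bars are list medians. The nuclear subunits have a median of 0.06 and the subunits encoded in mitochondrial DNA a median of 0.48.

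Promoters were searched for the letters of 5 factors or elements known at mitochondrial genes or at promoters in general. RefSeq windows on GRCm38.p6, from 250 bases before to 50 bases after the start, were found for 70 of the 87 symbols. On either strand, GCGCA followed after any 1 base by GCGC, the core that NRF1 binds, was in 22.9% of these windows, against 6.38% of 21263 windows of protein-coding genes. CCGGAAG, bound by the GABP family, was in 21.4% against 11.6%, and AAGATGGC, bound by YY1, in 12.9% against 3.05%. TATAAA was in 10.0% against 12.6% and the E-box CACGTG in 8.57% against 7.84%. Base composition was not matched between the sets. The GABP letters were in 6 of 12 windows of members that fell, 4 of 20 of members that rose and 5 of 34 of members not called, and the NRF1 letters in 2, 6 and 8 of them.

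Shown are the windows of Cycs and Atp5b, for their place in the results, of the members with the largest rise whose windows hold the NRF1 letters (Sdhd and Ndufa11), and of the members with the largest fall whose windows hold the GABP letters (Atp5k and Ndufb7). They are written 5′ to 3′ along the gene's strand from RefSeq on GRCm38.p6, with matches to the NRF1, GABP or TATA letters in capitals. Cycs is at chr6:50566520-50566819 (minus), Atp5b at chr10:128083057-128083356 (plus), Sdhd at chr9:50603800-50604099 (minus), Ndufa11 at chr17:56717512-56717811 (plus), Atp5k at chr5:108434350-108434649 (minus) and Ndufb7 at chr8:83566508-83566807 (plus).
Cycs: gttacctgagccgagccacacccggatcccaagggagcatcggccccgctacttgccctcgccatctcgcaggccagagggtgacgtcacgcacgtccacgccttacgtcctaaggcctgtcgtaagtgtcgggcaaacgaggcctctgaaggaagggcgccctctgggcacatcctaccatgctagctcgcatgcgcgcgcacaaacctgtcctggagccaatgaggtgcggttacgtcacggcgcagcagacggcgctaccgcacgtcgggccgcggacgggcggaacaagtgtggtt
Atp5b: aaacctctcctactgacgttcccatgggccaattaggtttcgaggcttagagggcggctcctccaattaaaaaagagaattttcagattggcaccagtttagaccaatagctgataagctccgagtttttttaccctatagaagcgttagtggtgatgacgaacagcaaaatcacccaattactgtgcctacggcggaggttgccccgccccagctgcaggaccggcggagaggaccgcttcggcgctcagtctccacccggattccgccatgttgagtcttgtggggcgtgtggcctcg
Sdhd: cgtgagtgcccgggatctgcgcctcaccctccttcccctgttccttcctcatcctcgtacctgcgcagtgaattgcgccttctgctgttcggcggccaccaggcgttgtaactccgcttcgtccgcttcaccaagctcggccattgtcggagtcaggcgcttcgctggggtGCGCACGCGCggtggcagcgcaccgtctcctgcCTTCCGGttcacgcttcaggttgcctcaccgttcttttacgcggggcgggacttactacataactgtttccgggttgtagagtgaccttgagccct
Ndufa11: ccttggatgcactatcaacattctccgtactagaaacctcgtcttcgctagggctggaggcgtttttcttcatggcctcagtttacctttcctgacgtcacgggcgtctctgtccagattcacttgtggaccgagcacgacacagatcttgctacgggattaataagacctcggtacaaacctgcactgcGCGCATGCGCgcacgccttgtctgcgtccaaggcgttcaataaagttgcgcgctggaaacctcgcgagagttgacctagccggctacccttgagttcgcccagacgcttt
Atp5k: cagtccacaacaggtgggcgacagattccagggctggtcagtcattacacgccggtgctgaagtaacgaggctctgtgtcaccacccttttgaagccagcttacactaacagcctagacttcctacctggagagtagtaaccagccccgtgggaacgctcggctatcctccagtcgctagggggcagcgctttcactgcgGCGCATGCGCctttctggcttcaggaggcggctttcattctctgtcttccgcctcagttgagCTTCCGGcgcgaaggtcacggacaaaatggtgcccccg
Ndufb7: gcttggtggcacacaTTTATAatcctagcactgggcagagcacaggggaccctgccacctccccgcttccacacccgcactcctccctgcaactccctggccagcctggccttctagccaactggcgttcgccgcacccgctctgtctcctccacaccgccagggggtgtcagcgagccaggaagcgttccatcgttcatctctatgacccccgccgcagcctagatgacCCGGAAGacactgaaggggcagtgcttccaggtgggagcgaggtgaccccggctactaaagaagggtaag
Sdhd and Atp5k hold both the NRF1 and the GABP letters and moved in opposite directions. None of the 5 sets of letters is in the Cycs or Atp5b window as an exact match, which is all that was searched. The Cycs window holds tcgcatgcgc, which differs from the NRF1 letters in its first base, so a site for NRF1 there is not excluded.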

How the data were processed

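RNA of 3 shMed4 #4, 3 shMed4 #1 and 3 NTC samples was purified on an automated instrument with DNase treatment and read on a BGISEQ-500 platform, per the labels' protocols. The authors deposited raw counts of reads for each gene, as whole numbers and 1 file to a library; STAR, HTSeq and mm10 (GRCm38) are named per the submitters' processing notes, without versions. The sources used here give neither a strand setting nor an annotation release. Summary lines that name no gene entered neither library sizes nor tests: reads in no gene made up 49.5 to 51.6% of records, alignments to several places 10.5 to 11.6% and ambiguous reads 0.863 to 0.951%.

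Identifiers were matched without version to GENCODE M21 on GRCm38 (55154 of 55335). Of 101 symbol matches of any biotype, the 88 protein-coding ones are the members. Counts were tested with edgeR 4.0.16 (R 4.3.3): filterByExpr with a minimum count of 10, scaling by the trimmed mean of M values, and 1 quasi-likelihood fit of all 9 libraries with 3 groups, which was tested on simulated data. The mean of both hairpins minus NTC, each hairpin minus NTC and shMed4 #4 minus shMed4 #1 were tested, the first 3 against the same NTC libraries. SE is the log2 fold change over the root of its F statistic. CPM per kb uses the union of annotated exons. Alternatives used DESeq2 1.42.0, limma-voom (limma 3.58.1), other scalings and filters, a replicate block, a loess trend on GC content and length, subtraction of the neighbours' median change (25 tested genes per side), and each library left out.

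No pairing by replicate number was seen: none of the 9 same-number pairs correlated over 0.1. This does not show that cultures with the same number were handled apart. Members with over 25% of exon bases under another gene's exons, or over 25% of their 50-base stretches in another gene's transcripts, count as uncertain (7 identifiers). Genes given with values in every library were, per complex, the 3 largest changes of the mean of both hairpins among called members whose groups do not overlap, the most abundant per length, the complex II subunits, Cyc1, Cycs, and the 4 smallest adjusted p between hairpins; isoform groups are given by level, and other lists by their 3 smallest adjusted p and a few fixed regulators. Some genes that enter the counts are not reported here by name. The members and lists were chosen with earlier results of these data known. Promoters on chromosome 18 were passed over when windows were chosen for printing. Low counts limit precision most for Cox6a2, Atp5k, Atp5s and Ndufb2.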

Additional observations from a re-analysis of the deposited data

Results flagged for a closer look

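Given here are the 4 of 13 members called between the hairpins (where 28.0% of all genes were called) with the smallest adjusted p, by edgeR's test of shMed4 #4 minus shMed4 #1 with Benjamini-Hochberg adjustment over all genes. The log2 difference was -0.37 for Cox7c, -0.42 for Ndufv3, -0.26 for Sdha and 0.32 for Ndufa11. All 3 shMed4 #4 libraries lay below all 3 shMed4 #1 libraries for Cox7c, Ndufv3 and Sdha, and above them for Ndufa11. This separation goes with their choice by the adjusted p of the same contrast and adds no support. Its share over all genes was not counted. After the median change of neighbouring genes was subtracted, the differences were -0.24 for Cox7c (adjusted p = 0.0116, edgeR), -0.38 for Ndufv3 (0.00088) and -0.19 for Sdha (0.0096), and 0.16 for Ndufa11 (0.174), which was then not called. These p-values take the neighbours' median as known and leave out its error. Med4 itself was 0.67 higher on the log2 scale with shMed4 #4 than with shMed4 #1, and its part in these differences was not tested.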

How the results depend on the processing

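For the mean of both hairpins, the 39 members called became 16 (13 higher, 3 lower) after the neighbours' median was subtracted, 25 (18 and 7) at an adjusted p of 0.01, and 25 (17 and 8) when both hairpins were pooled as 1 group. They were 37 (19 and 18) with upper-quartile scaling, which moved the median of all genes to -0.05, 43 (32 and 11) with the GC and length trend removed, 31 with DESeq2 and 36 without members of uncertain reads, an alternative chosen after seeing the data. With the neighbours' median subtracted, shMed4 #4 gave 21 members and shMed4 #1 gave 14. Between the hairpins, the 13 calls became 6 with DESeq2 and 4 at an adjusted p of 0.01. With the neighbours' median subtracted, 46.3% of all genes were called for the mean of both hairpins, where 53.3% were called without that subtraction. Shares over all genes were not counted under the other settings, here or for the other lists, so these counts alone do not describe the members.

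Of the 75 tested assembly factors, biogenesis regulators and citrate cycle enzymes, 35 were called for the mean of both hairpins. That is 46.7%, beside 53.3% of all genes. The count became 23 with the hairpins pooled, 23 at an adjusted p of 0.01 and 22 with the neighbours' median subtracted. For shMed4 #1 alone the count was 17 at 0.01, and between the hairpins 9 with DESeq2 and 7 at 0.01.

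Subtracting the neighbours' median turned round the median of the F1 genes (0.008), of assembly factors with shMed4 #1 (-0.004), of biogenesis regulators (0.013) and of all members with shMed4 #4 (-0.002). It also turned round 10 of the 39 called members, Ndufa1 (-0.109), Ndufa5 (-0.162), Ndufv1 (-0.042), Ndufb7 (0.014), Cox4i1 (-0.038), Cox6a1 (-0.041), Atp5a1 (0.008), Atp5c1 (0.055), Atp5g2 (-0.192) and Atp5j (-0.06), and the regulator Gabpa (-0.004). The cause was not tested. No other of the 21 alternatives with fold changes of their own turned round any of the 39 called members. Medians near 0 also changed sign: for the mean of both hairpins, assembly factors (-0.015 with upper-quartile scaling, -0.017 with the neighbours' median subtracted) and complex III (-0.006 with upper-quartile scaling). For shMed4 #4 with upper-quartile scaling, those of all members (-0.014), complex I (-0.042), complex III (-0.021), assembly factors (-0.016) and biogenesis regulators (-0.042) did so. Between the hairpins, where medians over the members and complexes I to V lay within 0.1 of 0, several changed sign when a library was left out or the processing was changed.

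With each library left out in turn, members called ranged from 28 to 41 for the mean of both hairpins, 30 to 39 for shMed4 #4, 18 to 27 for shMed4 #1 and 6 to 15 between the hairpins. The median of complex V, -0.10, was -0.05 without NTC replicate 3. With the replicate number as a block, 38 members were called for the mean of both hairpins, and 43 with the block and the GC and length trend removed; 1 of 9 libraries correlated best with its own number.

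Reads shared with other transcripts were judged from transcripts, since the planned search of the whole genome was not run. The median SE over the members was 0.06 on the log2 scale, so changes of a few percent were not detectable in a single gene.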
